A study of Mus musculus with 15 samples.

Results

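The 9 genes described here encode the enzymes that write DNA methylation and some of the proteins that guide or read it, in E14 mouse embryonic stem cells (mESCs) depleted of a TET dioxygenase. They were taken by name, as a family, from the table of all genes: the methyltransferase genes Dnmt1, Dnmt3a, Dnmt3b and Dnmt3l, the hemimethylation-binding genes Uhrf1 and Uhrf2, and the methyl-CpG-binding domain genes Mbd1, Mbd2 and Mbd3. All 9 were among the 26061 genes of the table, and all 9 were among the 19490 genes with reads in at least 5 of the 15 libraries, which were tested. The rule that chose them used no expression value, although earlier results of these data were known.

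DNA methylation in mammals sits mainly on CpG dinucleotides. DNMT3A and DNMT3B set it on unmethylated DNA with the catalytically inactive cofactor DNMT3L, and DNMT1 copies it to the new strand after replication, brought to hemimethylated sites by UHRF1. TET enzymes act on the same mark in the other direction by oxidising 5-methylcytosine, which is why the methylating side is of interest in cells with less TET. MBD1 and MBD2 bind methylated CpGs and recruit repressors, whereas mammalian MBD3, a subunit of the nucleosome remodelling and deacetylase complex NuRD, binds them weakly.

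E14 is a line of the 129/Ola strain background, and all cells were grown without feeders on gelatin in serum with LIF. Each of 3 groups held 5 libraries, made from total RNA after removal of rRNA with a kit that keeps strand: a control group with a non-targeting hairpin (shScr), a group with a hairpin against Tet1 (shTet1) and a group with a hairpin against Tet2 (shTet2). Every group, control included, received a pLKO.1 lentivirus, was put under puromycin after 24 h and was collected after 3 days of selection. The labels give 1 hairpin name per target and do not say whether libraries of 1 group came from separate cultures, so that p-values measure only the spread between these libraries.

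In the libraries labelled shTet1, the normalised read count of Tet1 averaged 27.8% of that in shScr, and in those labelled shTet2 the count of Tet2 averaged 26.6%. Libraries held 15258291 to 35432425 reads on genes. The 8 ES cell markers, Pou5f1, Sox2 and Nanog among them, were present in every library and summed to 3906 to 5861 reads per 1000000 reads on genes (RPM). The first principal component of the deviations from the group means carried 37.9% of the variance and set replicates 1 and 2 apart from replicates 3 to 5 in all 3 groups. Reads on 1448 olfactory and vomeronasal receptor genes, which mESCs are not known to use, ranged from 11.1 to 64.7 RPM, and 4 libraries passed 50 RPM: replicate 4 of each group and shTet1 replicate 3.

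Per length, the RNAs of the family fell into an upper and a lower set. Averaged over all 15 libraries, Dnmt3l had the highest level at 116 ± 35.6 (SD, n = 15) RPKM (RPM divided by the exon length in kb), followed by Dnmt1 at 99.5 ± 5.70, Dnmt3b at 83.8 ± 27.1 and Uhrf1 at 69.0 ± 14.0 RPKM. Mbd3 had an intermediate level of 32.9 ± 6.65 RPKM. Below it stood Uhrf2 at 13.7 ± 1.31, Dnmt3a at 11.5 ± 2.69, Mbd2 at 6.83 ± 0.792 and Mbd1 at 4.06 ± 0.837 RPKM. In shScr, Dnmt3l stood at percentile 97.8 and Mbd1 at percentile 69.3 of 25809 genes with a length.

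By exon length, neighbours in the upper set did not separate beyond their spread. Dnmt3l exceeded Dnmt1 in 9 of 15 libraries, Dnmt1 exceeded Dnmt3b in 10 of 15, and Dnmt3b exceeded Uhrf1 in 10 of 15. Uhrf1 exceeded Mbd3 in 15 of 15 libraries, although their ranges met, and Mbd3 exceeded Uhrf2 in 15 of 15 without overlap. In the lower set, Uhrf2 exceeded Dnmt3a in 11 of 15 libraries, Dnmt3a exceeded Mbd2 in 14 of 15 and Mbd2 exceeded Mbd1 in 14 of 15. The order of the means over 15 libraries was the same when each gene was scaled by its longest transcript, but the separations differed. On that scale Dnmt3l held 108.8 to 292 RPKM and Dnmt1 88.5 to 109.8 RPKM, so that their ranges barely met. Those of Mbd3 (28.7 to 51.5 RPKM) and Uhrf2 (27.7 to 38.4 RPKM) overlapped. By exon length within shTet2, Dnmt3l (141.8 RPKM on average) lay above Dnmt1 (96.3 RPKM) in 5 of 5 libraries without overlap. In shTet1 the order of these means was reversed, with Dnmt1 at 103 and Dnmt3l at 87.3 RPKM. By longest transcript it was not reversed in shTet1, with Dnmt3l at 143 and Dnmt1 at 103 RPKM.

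**Figure D1:**
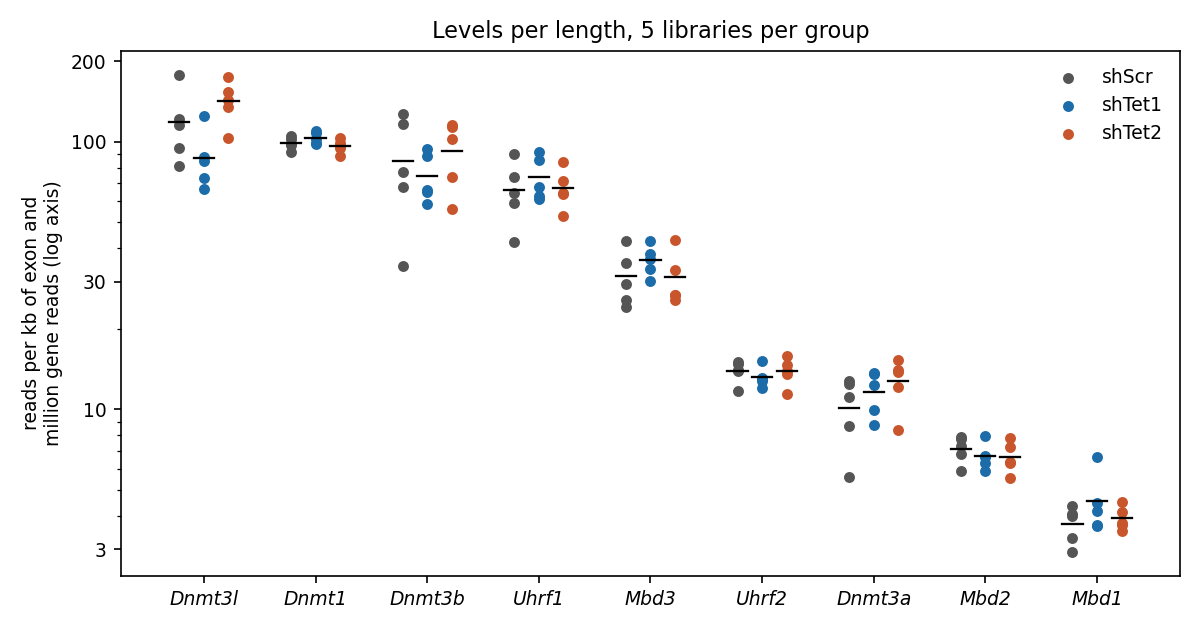
Level of each of the 9 genes per length (vertical axis, RPKM, log scale) in 5 libraries per group. Points are libraries, coloured by group, and black bars are group means. Dnmt3l, Dnmt1, Dnmt3b and Uhrf1 form the upper set at means of 69.0 to 116 and Mbd1 is lowest at 4.06, and Dnmt3b spreads from 34.3 to 127 while Dnmt1 stays between 88.5 and 109.8.

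No member passed the test across all genes in any comparison of the groups. Differences below are on the log2-like scale of the authors' variance-stabilised values, tested with limma and Benjamini-Hochberg adjustment over 19490 genes at a threshold of 0.05. In shTet1 against shScr, 0 of 9 members were called, where 0.0718% of all genes were. In shTet2 against shScr, 0 of 9 members were called against 0.390% of all genes, and in shTet2 against shTet1 0 of 9 against 4.24%. In no comparison did the values of a member separate the groups without overlap, which 2.62%, 2.70% and 6.04% of all genes did in the same order of comparisons. At an unadjusted limma p under 0.05 the members counted 0, 0 and 1, and all genes 2295, 2257 and 3057.

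The members' differences were of the same size as those of other genes, and their intervals give the range of differences compatible with the libraries. The median absolute difference of the 9 members was 0.14, 0.11 and 0.16 in the 3 comparisons, beside 0.16, 0.15 and 0.16 over all genes tested. The median half-width of their 95% confidence intervals was 0.35. The gene whose difference between the knockdowns was largest among the 9 was Dnmt3l.

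**Figure D2:**
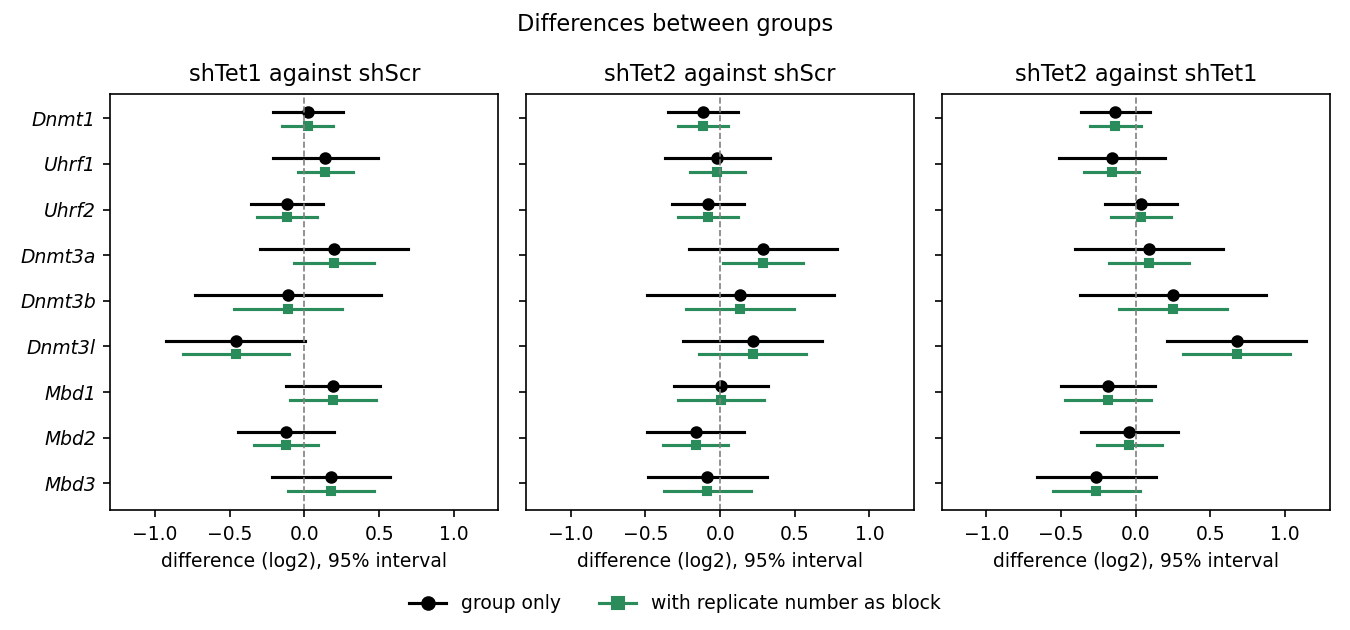
Differences between groups (horizontal axis, log2 units, first group minus second) for the 9 genes in 3 comparisons, with 95% confidence intervals. Black circles and lines come from the fit with the group alone and green squares and lines from the fit with the replicate number as a block. Only the Dnmt3l intervals in shTet2 against shTet1 (0.21 to 1.14, and 0.32 to 1.03 with the block) lie wholly above 0 in that panel.

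Dnmt3l encodes the cofactor that stimulates DNMT3A and DNMT3B. The gene lies on the forward strand at chr10:77504692-77526367 (mm9, exons and introns of a protein-coding gene), and 2.24% of its exon bases lie under exons of Aire on the opposite strand. In shScr its variance-stabilised values were 13.49, 13.05, 12.70, 12.33 and 12.96 in replicates 1 to 5. In shTet1 they were 11.998, 12.43, 12.49, 12.17 and 13.15, and in shTet2 they were 13.38, 13.12, 13.16, 12.62 and 13.36. Values of shTet2 were above those of shTet1 in 5 of 5 same-numbered pairs, and the groups overlapped because shTet1 replicate 5 was high and shTet2 replicate 4 low. Both knockdowns overlapped shScr.

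The Dnmt3l difference between the knockdowns was 0.68 (SE 0.22, 95% interval 0.21 to 1.14), a 1.60-fold higher value in shTet2 than in shTet1 with an interval of 1.16 to 2.21. Its limma adjusted p was 0.104, with an unadjusted two-sided exact permutation p of 0.0238 for 5 against 5 libraries. Same-numbered libraries of these groups deviated together (r of 0.33 to 0.73 over all genes tested). No r was computed between libraries of different numbers, so these r do not show that the numbers pair the libraries. With the replicate number as a block, the interval was 0.32 to 1.03 and the limma adjusted p 0.0155. By that fit 1 of 9 members was called, where 11.2% of all genes were. Within replicates 1 and 2 the difference was 1.03 and within replicates 3 to 5 it was 0.44. Leaving out replicate 2 of all groups gave a blocked limma adjusted p of 0.0569, and leaving out shTet1 replicate 5 gave an unblocked one of 0.0244.

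Against the control, the Dnmt3l difference passed the threshold in neither knockdown. In shTet1 it averaged 5773 ± 1947 normalised reads (SD, n = 5), in shScr 7919 ± 2381 and in shTet2 9045 ± 1755. The difference of shTet1 from shScr was -0.46 (-0.92 to 0.0062; limma adjusted p = 0.433), with lower values in 4 of 5 same-numbered pairs and a blocked limma adjusted p of 0.127. That difference was -1.06 within replicates 1 and 2 and only -0.059 within replicates 3 to 5. The difference of shTet2 from shScr was 0.22 (-0.25 to 0.68; limma adjusted p = 0.786). These comparisons share the shScr libraries. With the block, 4.80% of all genes were called in shTet1 against shScr and 4.31% in shTet2 against shScr, and 0 of 9 members in either.

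Some marker genes moved between the knockdowns as well. The 4 measured 2-cell-like markers (Zfp352 and the near-identical Zscan4c, Zscan4d and Zscan4f, between which reads could be split) summed to 103.8 to 451 RPM in shTet1 and to 893 to 1812 RPM in shTet2, and 4 of 4 were called higher in shTet2. The 5 primed epiblast markers summed to 54.9 to 111 RPM and 84.4 to 144 RPM, the 6 primitive endoderm markers to 11.8 to 21.8 RPM and 4.47 to 12.6 RPM, the 5 trophoblast markers to 5.34 to 8.75 RPM and 2.46 to 6.03 RPM, and the 5 fibroblast markers to 5.34 to 7.64 RPM and 9.15 to 10.5 RPM. By sign, 4 of 5 primed epiblast and 2 of 5 fibroblast markers were higher in shTet2, and 6 of 6 primitive endoderm markers were lower. Single genes led some sums. Over all libraries Thy1 had a median of 5.10 RPM, and each other fibroblast marker at most 0.678 RPM. The median of Eomes was 3.08 RPM, and that of each other trophoblast marker at most 0.297 RPM. The 8 ES cell markers summed to 4837 to 5861 RPM in shTet1 and 3906 to 5144 RPM in shTet2, with 7 of 8 lower in shTet2 by sign and 0 called. Of the other lists, Otx2 (primed epiblast) was called higher in shTet2, and Eomes (trophoblast) was called lower, by -0.94 (limma adjusted p = 0.0185). By sign, 4 of 5 trophoblast markers were higher in shTet2, and Eomes was the 1 that was lower. No marker was at 0 in every library of a group. Their part in the Dnmt3l difference was not tested, and in bulk RNA fewer cells of a type and less RNA per cell cannot be told apart.

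**Figure D3:**
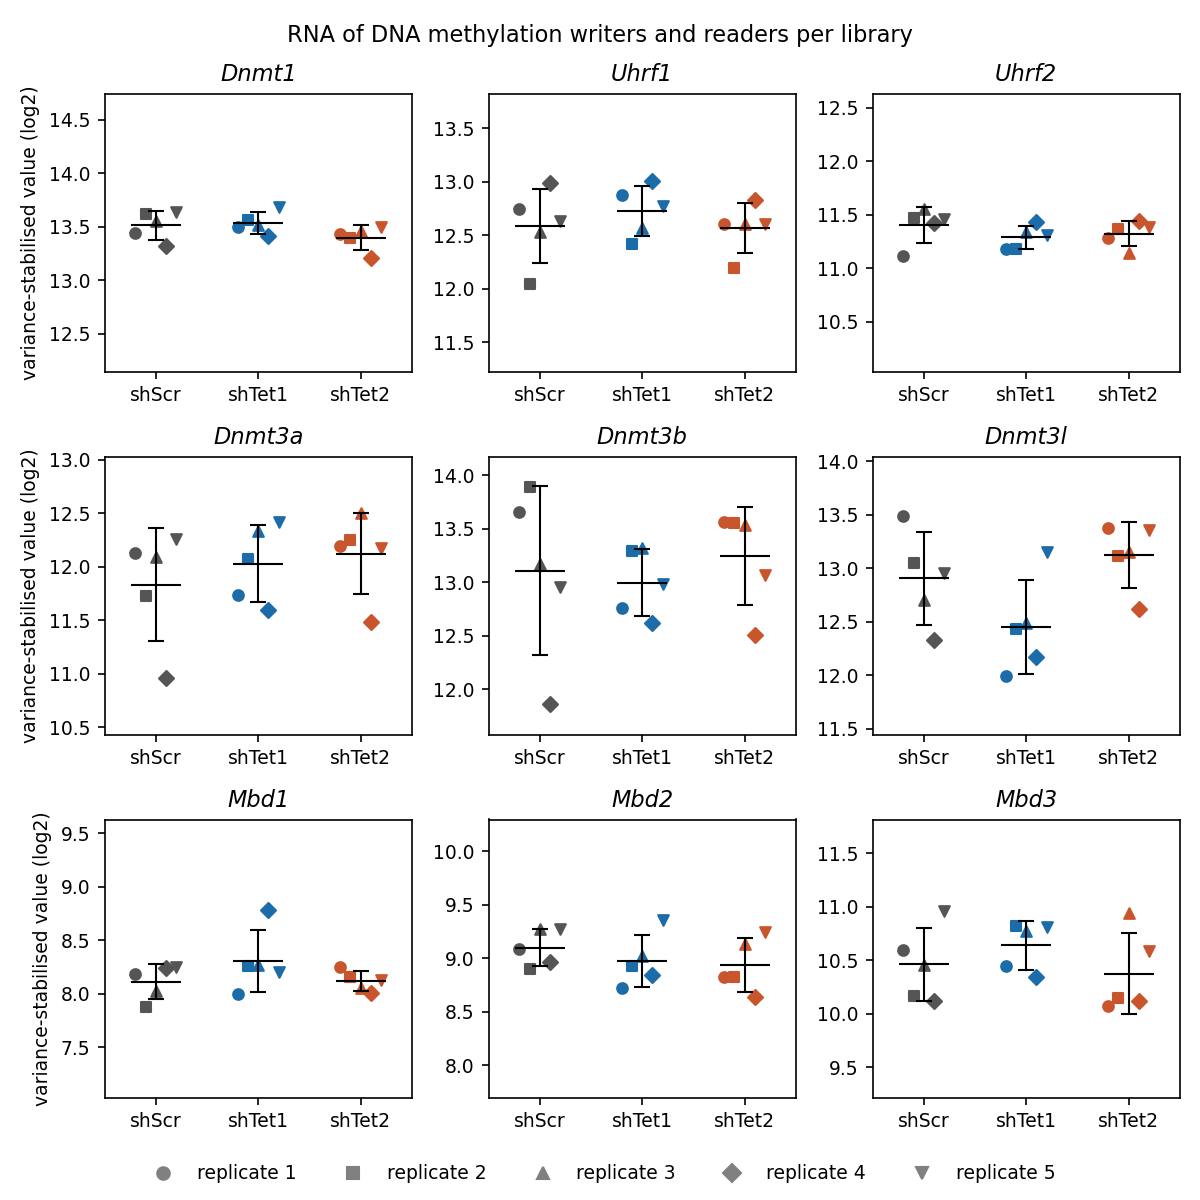
Variance-stabilised value (vertical axis, log2-like units, the same span in all panels) of each gene in 15 libraries. Symbols mark the replicate number, colours the group, and black bars the mean with the SD of 5 libraries. In every panel the groups overlap, Dnmt3l sits lowest in shTet1 at a mean of 12.45, and replicate 4 is the lowest library of each group for Dnmt1, Dnmt3a and Dnmt3b.

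Dnmt3b, the main de novo methyltransferase gene of the early embryo, varied the most among the 9 within groups. It lies on the forward strand at chr2:153475186-153513466 (mm9). Its values were 13.66, 13.89, 13.17, 11.86 and 12.96 in the control replicates 1 to 5, 12.76, 13.29, 13.32, 12.62 and 12.98 in shTet1, and 13.56, 13.55, 13.53, 12.51 and 13.07 in shTet2. Replicate 4 was the lowest of every group, and the groups overlapped throughout. Its differences were -0.11 (-0.74 to 0.51) in shTet1 against shScr, 0.14 (-0.49 to 0.76) in shTet2 against shScr and 0.25 (-0.38 to 0.87) in shTet2 against shTet1, with limma adjusted p of 0.937, 0.921 and 0.792. The intervals are wide, and differences up to those bounds in either direction were compatible with these libraries.

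Dnmt3a, the other active de novo enzyme gene, lies at chr12:3806007-3914443 (mm9, forward strand). Its values were 12.13, 11.73, 12.09, 10.96 and 12.26 in the control libraries, 11.73, 12.07, 12.33, 11.60 and 12.42 in shTet1, and 12.20, 12.25, 12.50, 11.48 and 12.18 in shTet2. Again replicate 4 was the lowest of each group. The difference was 0.20 (-0.30 to 0.69) in shTet1 and 0.29 (-0.21 to 0.78) in shTet2 against shScr, and 0.091 (-0.40 to 0.59) between the knockdowns, with limma adjusted p of 0.818, 0.719 and 0.925. With the block the interval in shTet2 against shScr was 0.020 to 0.56 (limma adjusted p = 0.212), although the libraries numbered 3 of those groups did not deviate together (r = 0.00789).

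The 3 DNMT3 genes moved together from library to library. After subtraction of the group means, over 15 libraries, Pearson's r was 0.75 for Dnmt3a with Dnmt3l (Spearman's rho 0.67), 0.73 for Dnmt3a with Dnmt3b (rho 0.46) and 0.66 for Dnmt3b with Dnmt3l (rho 0.63). Without the 2 libraries farthest from the median, r was 0.57, 0.28 and 0.39, so that the second and the last rest in part on those libraries. Within replicates 1 and 2, with 2 libraries per group, the r values were 0.85, 0.52 and 0.76, and within replicates 3 to 5 they were 0.78, 0.91 and 0.66. Both sets used deviations from the means of all 5 libraries of a group, so that shifts between the sets enter these r. These libraries share the replicate numbers and the table's scaling, and the r values are a description.

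The promoter windows of the 3 genes are shown because the genes moved together and because they differ in their content of CpG, the dinucleotide their products act on. Each window runs from 250 bases before to 50 after a transcription start in RefSeq (GRCm38.p6, a later build than the mm9 positions above, forward strand). CpG dinucleotides are in capitals. The windows stand at chr2:153649199-153649498 for Dnmt3b, at chr12:3891494-3891793 for an internal start of Dnmt3a, which gives the shorter form known from mESCs, and at chr10:78042037-78042336 for the first start of Dnmt3l.
Dnmt3b: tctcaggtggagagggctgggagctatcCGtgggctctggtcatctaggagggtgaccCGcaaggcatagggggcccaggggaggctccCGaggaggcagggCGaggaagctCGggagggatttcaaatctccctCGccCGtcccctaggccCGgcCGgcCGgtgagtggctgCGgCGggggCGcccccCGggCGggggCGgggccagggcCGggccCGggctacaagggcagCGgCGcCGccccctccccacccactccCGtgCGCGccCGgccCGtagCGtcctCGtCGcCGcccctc
Dnmt3a, internal start: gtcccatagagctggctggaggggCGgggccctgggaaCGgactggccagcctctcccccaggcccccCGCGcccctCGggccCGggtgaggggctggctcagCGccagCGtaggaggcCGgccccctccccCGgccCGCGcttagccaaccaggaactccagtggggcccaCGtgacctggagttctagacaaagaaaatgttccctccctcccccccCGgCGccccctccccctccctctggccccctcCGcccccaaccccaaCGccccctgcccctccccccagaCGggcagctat
Dnmt3l, first start: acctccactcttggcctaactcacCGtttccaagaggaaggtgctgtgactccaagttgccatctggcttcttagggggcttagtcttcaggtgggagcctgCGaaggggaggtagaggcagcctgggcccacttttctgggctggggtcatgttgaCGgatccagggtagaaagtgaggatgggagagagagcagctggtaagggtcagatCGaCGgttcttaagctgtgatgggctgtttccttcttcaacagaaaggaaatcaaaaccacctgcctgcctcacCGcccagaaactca
The Dnmt3b window held 30 CpGs, a number that 11.7% of 32851 mouse windows of this length reached. The internal Dnmt3a window held 18 (reached by 29.7%), and its outer pair of starts 46 and 47. The first Dnmt3l window held 6 CpGs (reached by 56.4%), and its other starts 4 and 3, below the median of 7 over all windows. Reads counted per gene do not tell which start was used, and methylation of these windows was not measured in this table.

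Dnmt1, the maintenance methyltransferase gene, had the smallest SD within groups among the 9. It lies at chr9:20711650-20757317 (mm9, reverse strand), and its values were 13.44, 13.62, 13.55, 13.32 and 13.64 in the control libraries, 13.50, 13.56, 13.52, 13.42 and 13.69 in shTet1, and 13.44, 13.40, 13.46, 13.21 and 13.50 in shTet2. In each group replicate 4 was the lowest and replicate 5 the highest. That SD was 0.12, beside a median of 0.29 over all genes tested and 0.56 for Dnmt3b, and its highest library held 1.24 times the RPKM of its lowest, against 3.71 times for Dnmt3b. The difference was 0.022 (-0.21 to 0.26; limma adjusted p = 0.968) in shTet1 and -0.11 (-0.35 to 0.12; limma adjusted p = 0.775) in shTet2 against shScr. Values in shTet2 were below those of shTet1 in 5 of 5 same-numbered pairs, by 0.14 on average, with an interval of the difference of -0.37 to 0.098, a limma adjusted p of 0.650 and an unadjusted exact permutation p of 0.0635. A difference in Dnmt1 below -0.35 lay outside the intervals of both knockdowns against shScr.

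Uhrf1, whose product guides DNMT1 to hemimethylated DNA, lies at chr17:56442744-56462909 (mm9, forward strand). Its values were 12.74, 12.04, 12.53, 12.99 and 12.63 in the control libraries, 12.87, 12.42, 12.57, 13.00 and 12.78 in shTet1, and 12.60, 12.19, 12.61, 12.83 and 12.60 in shTet2. Replicate 4 was the highest and replicate 2 the lowest library of every group, the opposite end from Dnmt3b in the libraries numbered 4. The difference was 0.14 (-0.21 to 0.49) in shTet1 against shScr, with higher values in 5 of 5 same-numbered pairs, -0.019 (-0.37 to 0.33) in shTet2 against shScr and -0.16 (-0.51 to 0.19) between the knockdowns. None passed, with limma adjusted p of 0.818, 0.982 and 0.750.

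Uhrf2, a paralogue of Uhrf1 at chr19:30105003-30168212 (mm9, forward strand), is not known to replace it in maintenance. It ranged from 11.11 to 11.55 in shScr, from 11.18 to 11.43 in shTet1 and from 11.14 to 11.44 in shTet2, with an SD within groups of 0.13. Its differences were -0.12 (-0.36 to 0.12), -0.082 (-0.32 to 0.16) and 0.035 (-0.21 to 0.28) in the same order of comparisons, with limma adjusted p of 0.763, 0.861 and 0.943. The 3 ranges lay almost on each other.

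Uhrf1 and Dnmt3b were opposed across libraries. After subtraction of the group means their Pearson's r was -0.77 and Spearman's rho -0.70 over 15 libraries. Dropping the 2 most extreme libraries left r at -0.73. It was -0.54 within replicates 1 and 2 and -0.91 within replicates 3 to 5. Dnmt1 had r of 0.79 to Dnmt3a (rho 0.66, and 0.51 without the 2 farthest libraries) and -0.57 to Uhrf1 (rho -0.54, and -0.33 without them). Its r to Dnmt3b was 0.62, but rho was 0.34 and r fell to 0.11 without those libraries, on which that relation rests. For Dnmt1 and Dnmt3a, r was -0.32 within replicates 1 and 2 and 0.92 within replicates 3 to 5. The r within sets, also those of Uhrf1 and Dnmt3b, used deviations from the means of all 5 libraries of a group. Those within replicates 1 and 2 rest on 2 libraries per group and do not show whether a relation held there.

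Receptor-gene reads moved with some of these genes. Their r over 15 libraries was -0.71 to Dnmt1, -0.58 to Dnmt3a, -0.57 to Dnmt3b and -0.57 to Dnmt3l. Within replicates 1 and 2 these r values were 0.57, 0.39, 0.82 and 0.54, and within replicates 3 to 5 they were -0.94, -0.76, -0.51 and -0.79. Both sets used deviations from the means of all 5 libraries of a group, so shifts between the sets enter these r. Replicates 1 and 2 give 2 libraries per group, with receptor reads of only 11.1 to 18.2 RPM, and the sign there cannot be read as a result. The receptor reads stood between 54.5 and 64.7 RPM in the 3 libraries numbered 4, where Dnmt1, Dnmt3a and Dnmt3b were lowest. They stood at 56.3 RPM in shTet1 replicate 3, where Dnmt1 (13.52) and Dnmt3a (12.33) were not lowest and Dnmt3b (13.32) was the highest of shTet1. The part of receptor reads in these levels was not tested. Without the 4 libraries over 50 RPM, the Dnmt3l difference between the knockdowns was 0.73, with a limma adjusted p of 0.175.

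**Figure D4:**
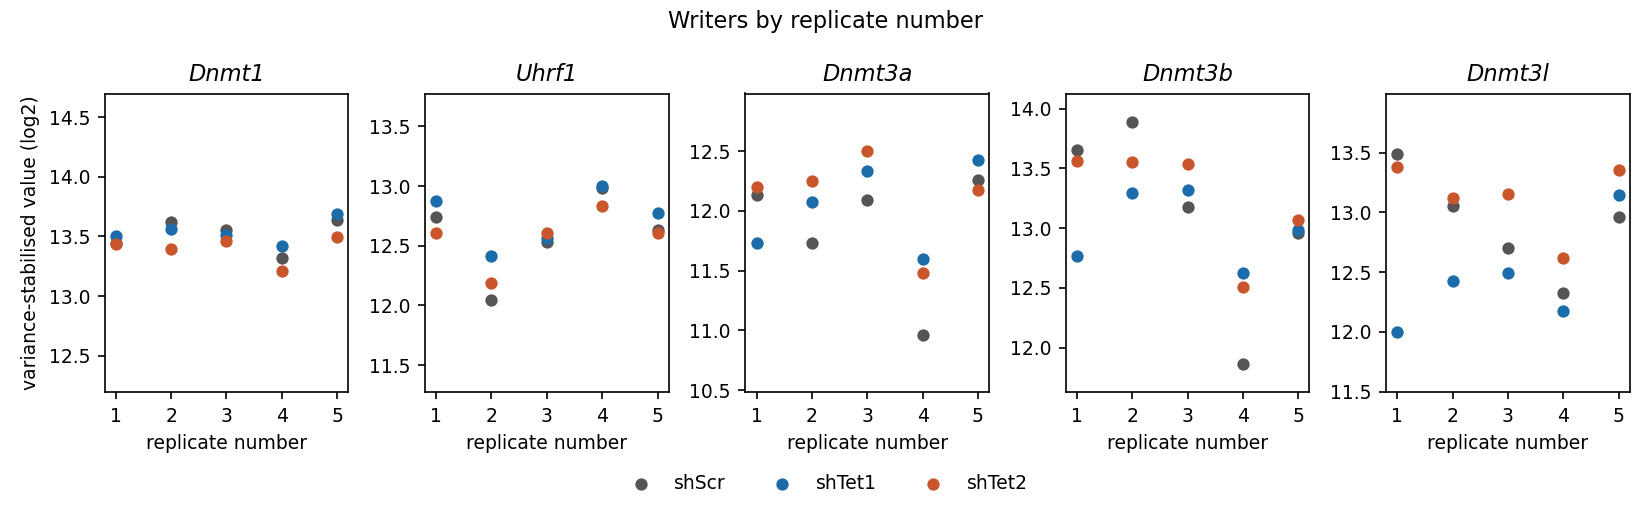
Variance-stabilised values (vertical axis, log2-like units, the same span in all panels) of 5 genes against the replicate number, 1 point per library, coloured by group. Libraries numbered 4 are lowest in every group for Dnmt1, Dnmt3a and Dnmt3b and highest for Uhrf1, and for Dnmt3l shTet2 lies above shTet1 at all 5 numbers.

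The reader genes had lower levels per length than most writers, and none of them passed the test. Mbd3 lies at chr10:79855284-79862295 (mm9, reverse strand) and ranged from 10.12 to 10.96 in shScr, from 10.34 to 10.82 in shTet1 and from 10.07 to 10.94 in shTet2. Its differences were 0.18 (-0.22 to 0.57), -0.085 (-0.48 to 0.31) and -0.26 (-0.66 to 0.13), with limma adjusted p of 0.785, 0.923 and 0.585. All 3 groups overlapped, with the lowest mean in shTet2 and the highest in shTet1.

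Mbd2, a methyl-CpG-binding subunit of NuRD, lies at chr18:70727843-70785785 (mm9, forward strand). It ranged from 8.90 to 9.28 in shScr, from 8.73 to 9.36 in shTet1 and from 8.64 to 9.25 in shTet2. Its differences were -0.12 (-0.44 to 0.20), -0.16 (-0.49 to 0.16) and -0.042 (-0.36 to 0.28), with limma adjusted p of 0.829, 0.764 and 0.950. Values in shTet2 were below those of shScr in 5 of 5 same-numbered libraries, within the spread of the groups.

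Mbd1, whose product binds methylated CpGs and works with SETDB1 and ATF7IP, lies at chr18:74427926-74442339 (mm9, forward strand). It was the most thinly covered member, with 155 reads in its lowest library, for which counting error alone gives a relative SD of 8.03%. It ranged from 7.87 to 8.25 in shScr, from 8.001 to 8.78 in shTet1 and from 8.01 to 8.25 in shTet2, and the highest value was shTet1 replicate 4. Its differences were 0.19 (-0.13 to 0.50), 0.0044 (-0.31 to 0.32) and -0.19 (-0.50 to 0.13), with limma adjusted p of 0.690, 0.996 and 0.646. Mbd2 and Mbd3 moved together after subtraction of the group means, with r of 0.76 (rho 0.76, 0.82 without the 2 farthest libraries), and Mbd1 with Mbd2 had r of 0.032.

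Genes that act with the 9 were examined in 7 lists holding 56 genes, all of them tested. In shTet1 against shScr, 0 of 56 were called. In shTet2 against shScr 1 was called higher, and in shTet2 against shTet1 1 was called higher and 1 lower. These were 0%, 1.79% and 3.57% of the 56, beside 0.0718%, 0.390% and 4.24% of all genes tested. With the replicate block the calls numbered 3, 5 and 7, or 5.36%, 8.93% and 12.5% of the 56, beside 4.80%, 4.31% and 11.2% of all genes, so that the first and the last share were near the background. The median differences of the 56 were -0.0097, -0.094 and -0.091, beside 0.013, 0.038 and 0.015 over all genes tested.

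Among the 6 partners of the writers, Dppa3 and Cdca7 were called. Dppa3, whose product keeps UHRF1 from chromatin, had values of 8.61, 8.11, 9.50, 7.74 and 8.94 in the control libraries, 9.98, 10.10, 9.52, 9.28 and 9.37 in shTet1, and 10.33, 10.41, 9.78, 9.27 and 10.16 in shTet2. Only shScr replicate 3 reached into the ranges of the knockdowns. It rose by 1.41 (0.81 to 2.01; limma adjusted p = 0.0372) in shTet2 against shScr and differed by 1.07 (0.47 to 1.67; limma adjusted p = 0.126, 0.0164 with the block) in shTet1 against shScr. The call in shTet2 was kept in 6 of 15 fits that left out a single library, in which the difference was 1.20 to 1.64, and it was lost when shScr replicates 1, 2, 4 or 5, shTet1 replicate 3 or shTet2 replicates 1, 2, 3 or 5 were left out. Its limma adjusted p was 0.0819 without the 4 libraries high in receptor reads, 0.0699 with median centring, 0.0504 with the laxer gene filter and 0.0580 with only the groups compared.

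Cdca7, which encodes an activator of the remodeller HELLS needed for DNA methylation in heterochromatin, had values of 11.95 to 12.28 in shScr, 12.39 to 12.63 in shTet1 and 11.99 to 12.34 in shTet2. The shTet1 range lay above both others without overlap. The difference of shTet2 from shTet1 was -0.41 (-0.64 to -0.17; limma adjusted p = 0.0429), that of shTet1 from shScr 0.37 (limma adjusted p = 0.163, 0.0186 with the block) and that of shTet2 from shScr -0.035. The call between the knockdowns was kept in only 3 of 15 fits without a library, those without shScr replicate 2, shScr replicate 4 or shTet2 replicate 1, with differences of -0.46 to -0.37, and without the 4 libraries high in receptor reads the limma adjusted p was 0.136. It was also lost with no variance trend, with only the groups compared, with median centring and with quantile normalisation (limma adjusted p of 0.0637, 0.0627, 0.0645 and 0.0753). Trdmt1, which encodes a tRNA methyltransferase related to the DNMTs, differed by -0.43 between the knockdowns (limma adjusted p = 0.164, 0.0281 with the block).

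Of 7 genes listed as regulators of Dnmt3b and Dnmt3l in mESCs, Otx2 was called. Otx2, a homeobox gene that drives the exit from the naive state and was also 1 of the 5 primed epiblast markers, had values of 9.97, 10.45, 9.50, 9.81 and 9.06 in the control libraries, 9.70, 9.94, 9.44, 9.33 and 8.93 in shTet1, and 10.76, 10.82, 10.48, 10.41 and 9.91 in shTet2. Within each group replicate 5 was the lowest. It was higher in shTet2 than in shTet1 by 1.01 (0.51 to 1.51; limma adjusted p = 0.0192, 1.65e-05 with the block), and the call was kept in 13 of 15 fits without a library, with limma adjusted p of 0.0571 and 0.0617 without shTet2 replicates 1 and 2. Without the 4 libraries high in receptor reads, the limma adjusted p was 0.180. Against shScr, Otx2 differed by 0.72 in shTet2 (limma adjusted p = 0.213, 0.00168 with the block). In that comparison L3mbtl2, named after its values were seen, differed by -0.38 and was called with the block only (limma adjusted p = 0.0358). Prdm14, which represses Dnmt3b and Dnmt3l in naive mESCs, differed in the opposite direction, by -0.66 (-1.10 to -0.21; limma adjusted p = 0.0977, 0.0113 with the block).

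**Figure D5:**
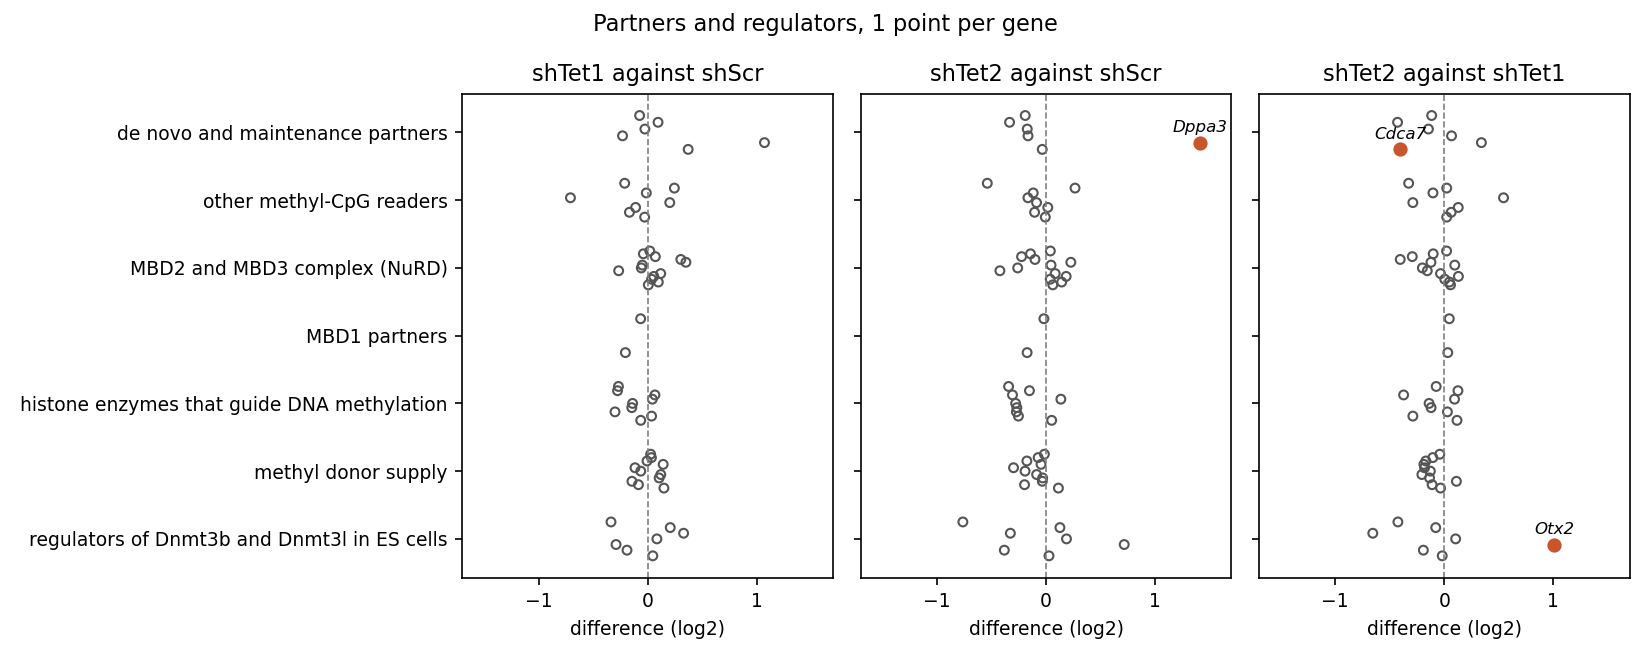
Difference between groups (horizontal axis, log2 units, first group minus second) of 56 genes that act with the DNA methylation machinery, in 7 lists and 3 comparisons, 1 circle per gene. Filled circles carry a limma adjusted p under 0.05: Dppa3 at 1.41 in shTet2 against shScr, and Otx2 at 1.01 and Cdca7 at -0.41 in shTet2 against shTet1.

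In the other 5 lists no gene was called in any comparison without the block. Among 8 further methyl-CpG readers, Zbtb33, which encodes the reader KAISO, differed by -0.71 in shTet1 against shScr and 0.54 between the knockdowns (limma adjusted p of 0.143 and 0.161, 0.0133 and 0.0205 with the block). Zfp57, whose product holds methylation at imprinted regions, differed by -0.54 in shTet2 against shScr and -0.33 between the knockdowns (limma adjusted p of 0.310 and 0.520, the first 0.0230 with the block). Of the 13 NuRD genes, Mta2 and Mta3 differed most between the knockdowns, by -0.40 and -0.29 (limma adjusted p of 0.163 and 0.390, and for Mta2 0.0156 with the block). The MBD1 partners Setdb1 and Atf7ip differed by 0.045 and 0.031.

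Of the 9 histone enzymes that guide DNA methylation, 7 were lower in shTet2 than in shScr by sign and 0 passed. Suv39h2, a writer of H3K9 trimethylation, differed by -0.37 (-0.60 to -0.14) between the knockdowns with a limma adjusted p of 0.0642, and was called with the block (0.0158). Ehmt2, a writer of H3K9 dimethylation, differed by -0.29 (limma adjusted p = 0.543). Of the 11 genes that supply the methyl donor, 10 were lower by sign in shTet2 than in shScr and 10 than in shTet1, with median differences of -0.072 and -0.13 and 0 called. Mthfd1l and Mtr, both of the folate cycle, differed by -0.21 and -0.19 between the knockdowns (limma adjusted p of 0.467 and 0.489).

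The genes whose values were most like those of each member over all 15 libraries were found among 10641 genes of sufficient level. Dnmt3b went with Tnfsf11 (r = 0.97) and Sf3b3 (r = 0.94), Dnmt1 with Bmp4 (r = 0.96) and B3galnt2 (r = 0.92), and Mbd2 with Trmt6 (r = 0.94) and G3bp2 (r = 0.92). Mbd3 went with Eftud2 (r = 0.93) and Mybbp1a (r = 0.89), Dnmt3a with Eno1 and Adamts1 (r = 0.92 and 0.91), Uhrf1 with Tmx2 and Ubn1 (r = 0.91 and 0.89), and Uhrf2 with Hadha and Pycard (r = 0.91 and 0.90). Dnmt3l went with Vipar and Gatm (r = 0.90 and 0.89). Mbd1 had no close match, with r of 0.73 to Ctsz and 0.71 to Cpsf4l. These are the highest of many correlations over libraries that share replicate numbers, and they are given as a description.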

How the data were processed

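The deposited values are variance-stabilised read counts per gene on a log2-like scale, made by the authors. Per the submitters' processing notes and the study's methods, reads were trimmed (Trim Galore 0.3.3), aligned to mm9 (TopHat2 2.0.9), counted in Seqmonk and transformed with DESeq2, and each read was placed at 1 position only, also where it matched several as well. The table minimum of 4.25 stands for 0 reads. Undoing the transformation returned whole reads (within 0.01, checked up to 1000 reads) for 100% of values in every library. These reads gave depth, RPM and RPKM, the last over the union of exons of the mm9 annotation. The deposited repeat table and the small RNA libraries were not used here.

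Differences were tested on the deposited values with limma 3.58.1 (R 4.3.3; lmFit and eBayes with a variance trend, two-sided, Benjamini-Hochberg over all 19490 genes above the minimum in at least 5 libraries), all 15 libraries in 1 fit with the group as the term. The code was tested on simulated data. The labels number replicates 1 to 5 in each group but state no pairing. After subtraction of group means, same-numbered libraries correlated at r of 0.37 to 0.66 for shTet1 and shScr and 0.33 to 0.73 for shTet2 and shTet1, but down to 0.00789 (replicate 3) for shTet2 and shScr. The first 2 comparisons thus reached a minimum of 0.1 in every pair and the last did not. No r was computed between libraries of different numbers. The check therefore cannot tell pairing by number from the split of replicates 1 and 2 from 3 to 5. The adjusted p with the number as a block is given beside each named result whose call it changes, also in shTet2 against shScr, where that minimum was not reached.

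The members and lists were chosen with earlier results of these data known. Named are all members, Tet1 and Tet2, the called genes of each pathway list with the 2 of the list that differed most between the knockdowns, and the 2 genes most correlated with each member among those at least 2 units above the minimum. Alternatives were a laxer gene filter, no variance trend, only the groups compared, median centring, quantile normalisation, log2 of RPM plus 1, array weights, the block, single libraries left out and the replicate sets apart. Fits without the libraries high in receptor reads, without those numbered 4, and of the block with another scaling or without 1 number were chosen after seeing the data. The sources used here name a directional kit but no strand setting for the counting. Stretches of 50 bases shared with other genes made up at most 0.166% of a member's exons.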

Additional observations from a re-analysis of the deposited data

Results flagged for a closer look

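The effects of the knockdowns on Dnmt3l differed from each other by 0.68 (shTet2 minus shTet1, log2 units, higher in 5 of 5 same-numbered pairs), while neither effect passed against shScr. The difference itself had a limma adjusted p of 0.0155 with the replicate number as a block and 0.104 without it. No library passed Dixon's critical value of 0.71 in any of the 27 sets of 5 values of the 9 members. The closest, shScr replicate 1 for Uhrf2, fell just short at 0.7098.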

How the results depend on the processing

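Of the 27 member differences, 14 kept their sign under every alternative, and 1, Dnmt3l between the knockdowns, was called under any. The count of members called was 0 in shTet1 and in shTet2 against shScr throughout. In shTet2 against shTet1 it was 1 (Dnmt3l) under quantile normalisation, array weights, the replicate block, and the block with median centring or with quantile normalisation, and 0 to 1 over the fits that left out a single library (1 without shTet1 replicate 5). With the replicate block the Dnmt3l difference was 0.68, and without replicates 1 to 5 in turn its blocked limma adjusted p was 0.0247, 0.0569, 0.0407, 0.0494 and 0.0131. The block changed no other member's call. It raised the count of genes called from 14 to 935 in shTet1 against shScr, from 76 to 840 in shTet2 against shScr and from 827 to 2178 in shTet2 against shTet1.

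None of the 49 values that changed sign was called, and the causes were not tested. Median centring shifted shTet2 against shScr by -0.11 for every gene. In shTet1 against shScr, Dnmt1 was -0.029 with median centring (with and without the block), -0.015 with array weights and -0.000972 within replicates 1 and 2, Dnmt3a was -0.027 within replicates 1 and 2, and Dnmt3b 0.31 within replicates 3 to 5. In shTet2 against shScr, Uhrf1 was 0.083 with quantile normalisation (with and without the block), 0.057 on log2 RPM, 0.00459 within replicates 1 and 2, and 0.015 both without the 4 libraries high in receptor reads and without the 3 numbered 4. Uhrf2 was 0.013 with quantile normalisation (with and without the block) and 0.030 within replicates 1 and 2, Dnmt3b -0.22 and Dnmt3l -0.026 within replicates 1 and 2, and Mbd3 0.040 within replicates 3 to 5. Mbd1 was -0.10 with median centring and -0.053 with quantile normalisation (both with and without the block) and -0.11 within replicates 3 to 5. In shTet2 against shTet1, Uhrf2 was -0.021 with median centring (with and without the block) and -0.036 within replicates 3 to 5, Dnmt3a -0.064 within replicates 3 to 5, Mbd1 0.069 within replicates 1 and 2, and Mbd2 0.000644 within replicates 1 and 2, 0.00577 without the 4 libraries high in receptor reads and 0.00136 without the 3 numbered 4. With single libraries left out, signs changed within -0.027 to 0.053 for Dnmt1, -0.021 to 0.31 for Dnmt3a and -0.42 to 0.084 for Dnmt3b in shTet1 against shScr, within -0.15 to 0.081 for Uhrf1, -0.18 to 0.33 for Dnmt3b, -0.055 to 0.038 for Mbd1 and -0.23 to 0.040 for Mbd3 in shTet2 against shScr, and within -0.018 to 0.25 for Dnmt3a and -0.12 to 0.054 for Mbd2 in shTet2 against shTet1.

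In the library with the fewest reads, counting error gave a relative SD of 1.15% (Dnmt1) to 5.33% (Mbd2) for 8 members. For Mbd1 it was 8.03%, and its SD within groups was 0.20 log2 units. The part of counting error in the spread of Mbd1 was not tested.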
